A study of Mus musculus with 25 samples.

Results

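This account covers 36 mouse genes of cholesterol and fatty acid synthesis, listed by name, with earlier results of these data known when the list was made. The sterol arm has 19 genes: 7 of the mevalonate steps up to farnesyl diphosphate, 11 of the steps from squalene synthesis to cholesterol, and the sterol carrier Stard4. The regulators are 5 genes, Srebf1, Srebf2, Scap, Insig1 and Insig2. The fatty acid arm has 12 genes, namely 5 that supply precursors or build palmitate, 6 desaturases and elongases, and Gpam, which starts glycerolipid assembly. All 36 were found among the 45706 genes of the hypothalamic table and the 44674 genes of the cell-line table. All 36 passed the filter on low counts in every comparison.

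Cells make cholesterol from acetyl-CoA through mevalonate and squalene, and they make fatty acids from the same precursor through malonyl-CoA. Transcription of both pathways is driven by the SREBP factors: SREBP-2, from Srebf2, acts mainly on sterol genes, and SREBP-1c, from Srebf1, mainly on fatty acid genes. Both are carried to the Golgi for cleavage by Scap, and the Insig proteins hold Scap back in the endoplasmic reticulum when sterols are plentiful. In the adult brain cholesterol is made locally, largely in glia, because lipoprotein cholesterol does not cross the blood-brain barrier.

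The first experiment used 12-week-old mice of genotype Slco1c1Cre+/-;ROSA26lSlL10aGFP+/-, in which tamoxifen switches on a green fluorescent ribosomal protein, L10a, in cells where the Slco1c1 promoter drives CreERT2. At 3 weeks after tamoxifen the animals received the control diet (CD) or a high-fat one (HFD) over 3 days. Each feeding group gave 4 hypothalamic pools of 4 mice, 2 females and 2 males, and each pool gave an INPUT library from the lysate and an IP library from ribosomes pulled down through the tag, so all 16 libraries share genotype and tamoxifen and none comes from Cre-negative mice. The second experiment used the mouse brain endothelial line cEND, treated with DMSO or with the Glut1 inhibitor WZB117 (Glut1 carries glucose into cells) at 0.5 or 10 µM, with 1 library per treatment at passages 12, 14 and 18. The replicates of a treatment are therefore passages of a single line, and p-values measure the spread between such libraries; how long the cells were treated is not given in the sources used here.

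Totals ran from 27.9 M to 42.8 M counts per hypothalamic library and from 27.3 M to 41.3 M per cEND library. Values are counts scaled to library size (CPM) after TMM scaling within the libraries of each comparison. The lowest count of any of the 36 genes was 52 for Ebp in the hypothalamic libraries and 111 for Tm7sf2 in cEND. The libraries labelled as endothelial cells carried the endothelial markers in IP, but the astrocyte markers drew far more counts there, without scaling to length: the summed level of 11 endothelial markers was 70.9 to 109 CPM over the 8 IP libraries, and that of 10 astrocyte markers 27700 to 34600 CPM. In cEND the same endothelial markers summed to 4290 to 6040 CPM and the astrocyte markers to 183 to 222 CPM.

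The promoters were searched for short motifs of the SREBP system over the 250 bases before the start site, in RefSeq sequence of GRCm38.p6, which held 29 of the 36 genes in 39 windows. The motifs, read on both strands, were the sterol regulatory element TCACNCCAC, the E-box CACGTG, the CCAAT box bound by NF-Y, and the GC box GGGCGG bound by Sp1; the ends of an E-box and a sterol regulatory element can share letters. The 4 promoters printed here, 5′ to 3′ on the strand of the gene, are those of Hmgcs1, the 1 gene whose window held the sterol regulatory element, and of Mvd, Hsd17b7 and Insig1, 3 of the 6 genes called up in cEND cells at 10 µM WZB117 when passage was fitted as a block. Of the others, Insig2 and Me1 had 3 and 2 windows, which are not printed, with a CCAAT box in 1 window each. Capitals mark CCAAT boxes on either strand (CCAAT or ATTGG) and, in Hmgcs1, the sterol regulatory element.
Hmgcs1 (chr13:119690101-119690350, plus strand): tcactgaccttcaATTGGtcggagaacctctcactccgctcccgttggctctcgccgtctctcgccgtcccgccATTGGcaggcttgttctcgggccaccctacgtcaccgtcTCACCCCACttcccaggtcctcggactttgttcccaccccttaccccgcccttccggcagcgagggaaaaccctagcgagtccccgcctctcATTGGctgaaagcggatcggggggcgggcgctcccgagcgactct
Mvd (chr8:122443423-122443672, minus strand): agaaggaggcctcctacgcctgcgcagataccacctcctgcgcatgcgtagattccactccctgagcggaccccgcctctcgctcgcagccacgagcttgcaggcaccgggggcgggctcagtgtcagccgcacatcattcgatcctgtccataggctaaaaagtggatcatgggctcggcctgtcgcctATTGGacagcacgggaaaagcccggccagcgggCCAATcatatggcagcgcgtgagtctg
Hsd17b7 (chr1:169969206-169969455, minus strand): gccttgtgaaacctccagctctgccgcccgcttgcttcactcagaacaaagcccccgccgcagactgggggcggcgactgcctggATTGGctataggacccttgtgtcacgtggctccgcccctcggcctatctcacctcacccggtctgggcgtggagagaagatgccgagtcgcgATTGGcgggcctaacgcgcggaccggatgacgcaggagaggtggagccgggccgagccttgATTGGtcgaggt
Insig1 (chr5:28071162-28071411, plus strand): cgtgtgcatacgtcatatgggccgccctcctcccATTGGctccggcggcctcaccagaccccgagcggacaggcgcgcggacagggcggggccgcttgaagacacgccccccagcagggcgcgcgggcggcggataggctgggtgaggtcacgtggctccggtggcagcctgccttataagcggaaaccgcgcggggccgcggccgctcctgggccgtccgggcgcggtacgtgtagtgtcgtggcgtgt

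The Hmgcs1 element, TCACCCCAC, begins at position -137 from the start site, between the second and the last of its 3 CCAAT boxes. Of all 32851 windows of this length in the table, 1.05% held the element. A CCAAT box was found in 23 of the 29 genes, or 24 of 39 windows, against 33.8% of all windows and 35.4% of windows of protein-coding genes. By arm it was in 14 of 15 sterol genes, 4 of 5 regulators and 5 of 9 fatty acid genes. A gene counts if any of its windows held the motif. The shares over all promoters are per window, so they are not a background for counts of genes. The GC box was in 27 of 39 windows (24 genes), against 32.7% of all windows and 42.6% of protein-coding ones, and the E-box in 6 of 39 windows (6 genes), against 6.02% and 6.63%. A match is a run of letters and says nothing of binding in these samples.

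Relative to lysate RNA, the fatty acid arm was the most enriched of the 3 groups in tagged-ribosome RNA, and its desaturases led. The comparison asks which transcripts were over-represented on ribosomes carrying the tag; IP and INPUT were compared over both diets. A gene is counted as changed at an adjusted p under 0.05 in edgeR's quasi-likelihood test with Benjamini-Hochberg adjustment over all genes tested. By that rule 35 of 36 genes differed, 29 up and 6 down, where 83.7% of all genes tested differed, 41.6% up and 42.1% down. The median log2 fold change was 1.66 over the fatty acid arm (10 up, 2 down), 0.83 over the regulators (4 up, 1 down) and 0.60 over the sterol arm (15 up, 3 down, 1 not passing), against -0.02 over all genes. In 24 genes every IP library lay above every INPUT library, which held for 30.4% of all genes, and in 3 genes every IP library lay below, which held for 29.5%.

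**Figure D1:**
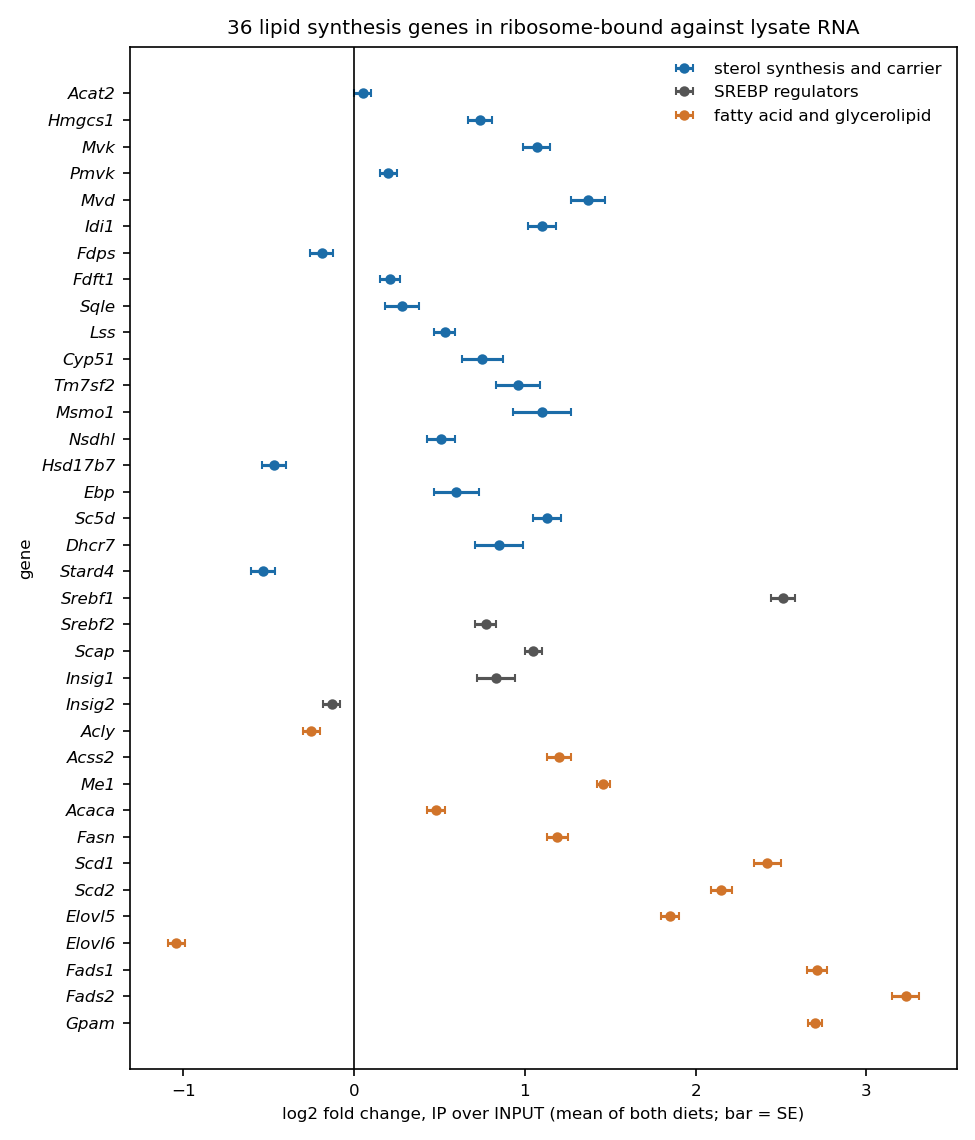
Log2 fold change of IP over INPUT for the 36 genes, with bars of 1 SE from 8 IP and 8 INPUT libraries; blue is the sterol arm, grey the regulators and orange the fatty acid arm. Fads2, Fads1, Gpam, Srebf1, Scd1 and Scd2 lie above 2 on this scale, and Elovl6 lies lowest at -1.04.

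Among the desaturases, Fads2, the Δ6-desaturase of polyunsaturated fatty acid synthesis, was at 29.6, 29.8, 33.4 and 37.7 CPM in the CD INPUT pools and 270, 296, 326 and 353 CPM in the CD IP pools. On HFD the INPUT pools held 28.6, 27.3, 29.3 and 33.7 CPM and the IP pools 281, 316, 235 and 265 CPM. All 8 IP libraries were far above all 8 INPUT libraries, and edgeR's quasi-likelihood test gave a log2 fold change of 3.23 ± 0.08 (SE; adjusted p = 2.51e-19). Fads1, the Δ5-desaturase of the same gene cluster on chromosome 19, was at 149 to 198 CPM in INPUT and 878 to 1230 CPM in IP (log2 fold change 2.71 ± 0.06). Scd2, the main stearoyl-CoA desaturase of brain, had 632, 652, 715 and 742 CPM in CD INPUT and 2840, 2810, 3260 and 3430 CPM in CD IP. Its HFD pools held 621, 648, 564 and 643 CPM in INPUT and 2870, 2890, 2310 and 2760 CPM in IP, a log2 fold change of 2.15 ± 0.06 with no overlap. Scd1, its close relative and neighbour on chromosome 19, differed by 2.42 ± 0.08; reads that match both could have been split between them.

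Other members of the fatty acid arm with high IP levels were Gpam (2.70 ± 0.04 on the log2 scale), the elongase Elovl5 (1.85 ± 0.05), malic enzyme Me1 (1.46 ± 0.04), which supplies NADPH, and Acss2 (1.20 ± 0.07), which makes acetyl-CoA from acetate. Fasn, the fatty acid synthase, was at 103 to 129 CPM over the INPUT pools and 224 to 358 CPM over the IP pools, a log2 fold change of 1.19 ± 0.06. Elovl6, which elongates palmitate, went the other way: the CD pools held 72.9, 80.3, 70.4 and 77.6 CPM in INPUT and 36.2, 41.4, 31.5 and 39.1 CPM in IP. Its HFD pools held 79.4, 81.0, 76.2 and 70.1 CPM in INPUT and 38.4, 38.6, 37.1 and 33.5 CPM in IP. The groups did not overlap, and the log2 fold change was -1.04 ± 0.05 (edgeR quasi-likelihood test, adjusted p = 2.74e-15). Acly, the cytosolic source of acetyl-CoA from citrate, fell by 0.25 ± 0.05 on the log2 scale, with overlapping libraries. The elongases Elovl5 and Elovl6 thus had opposite signs.

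Of the regulators, Srebf1 stood apart. It was at 10.9, 10.3, 13.2 and 12.2 CPM in CD INPUT against 59.2, 61.8, 74.1 and 78.9 CPM in CD IP, and at 9.85, 9.59, 9.96 and 11 CPM in HFD INPUT against 51.3, 60.8, 50.7 and 60.2 CPM in HFD IP. The groups were far apart, with a log2 fold change of 2.51 ± 0.07 (edgeR quasi-likelihood test, adjusted p = 6.67e-20). Srebf2 had 43.1 to 52.2 CPM over INPUT and 70.0 to 96.0 CPM over IP, a smaller difference of 0.77 ± 0.06. Scap differed by 1.05 ± 0.05 and Insig1 by 0.83 ± 0.11, whereas Insig2, the second Insig protein, fell by 0.13 ± 0.05 (adjusted p = 0.0248 in edgeR's quasi-likelihood test). The fall in Insig2 lay near the threshold and was lost without CD INPUT pool 1 (0.0541), CD IP pool 4 (0.0639), HFD IP pool 3 (0.078) or HFD IP pool 4 (0.072), the values being adjusted p from the same edgeR test.

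In the sterol arm the differences were smaller and not of a single sign. Mvd, mevalonate diphosphate decarboxylase, differed most: the CD pools held 6.98, 7.59, 6.49 and 8.25 CPM in INPUT and 22.8, 17.5, 15.4 and 25.0 CPM in IP, and the HFD pools 7.00, 7.33, 6.57 and 8.78 CPM in INPUT and 17.5, 21.5, 16.3 and 17.3 CPM in IP. Every IP value was above every INPUT value (1.37 ± 0.10 on the log2 scale). Next came Sc5d (1.13 ± 0.08), Idi1 (1.10 ± 0.08) and Msmo1 (1.10 ± 0.17), which act late, early and midway in the pathway. Hmgcs1, the cytosolic HMG-CoA synthase, was at 113 to 143 CPM in INPUT and 167 to 275 CPM in IP (0.74 ± 0.07). For Sqle, squalene epoxidase, the libraries overlapped, with 26.5 to 34.4 CPM in INPUT and 29.5 to 47.8 CPM in IP (0.28 ± 0.10, adjusted p = 0.0138 in edgeR's quasi-likelihood test).

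Stard4, Hsd17b7 and Fdps were the sterol genes lower in IP. Stard4 had 48.8 to 60.7 CPM in INPUT and 29.9 to 42.0 CPM in IP, a fall of 0.53 ± 0.07 on the log2 scale with no overlap, and the 3-ketosteroid reductase Hsd17b7 fell by 0.47 ± 0.07, also with no overlap. Fdps, farnesyl diphosphate synthase, fell by 0.19 ± 0.07 with overlapping libraries, and 26.7% of its exon bases are shared with Gm43738 on the same strand, so its reads cannot be assigned with certainty. Acat2, the thiolase of the first step, did not pass (0.05 ± 0.05, adjusted p = 0.348 in edgeR's quasi-likelihood test), and it has a closely similar neighbour, Acat3, with which reads could be split.

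Beside these shifts, all 10 astrocyte markers were higher in IP (median log2 fold change 2.89; summed INPUT level 4220 to 5170 CPM), as were all 11 endothelial markers (median 2.15; summed INPUT level 16.9 to 25.0 CPM). All 8 microglial markers were lower (median -3.74), 8 of 10 oligodendrocyte markers were lower (median -3.60), and all 8 neuronal markers were lower (median -1.22). Of 5 fibroblast markers, 4 were lower and 1 higher. In each of CD IP pools 1 and 3 and HFD IP pool 2, 1 of these markers was at 0. Mitochondrial and structural RNA genes took 32.9 to 39.6% of counts in INPUT and 7.8 to 10.5% in IP. The part of these cell types and of RNA composition in the differences of the 36 genes was not tested. In the IP libraries fewer tagged cells of a type and less tagged-ribosome RNA per cell cannot be told apart. Between pools of mice, the same holds for cell number and RNA per cell.

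Genes next to the pathways were taken from lists of their own. Of 12 other sterol genes, 6 rose and 4 fell, among them Soat1, which esterifies cholesterol (1.77 ± 0.05), and Npc2, which moves cholesterol out of lysosomes (1.13 ± 0.07). Of 5 genes of liver X receptor signalling and sterol efflux, 4 rose and 1 fell; the receptor Nr1h3 was at 2.57 ± 0.12 and the exporter Abcg1 at -1.49 ± 0.07. Of 15 other fatty acid genes, 12 rose and 2 fell, including the lipogenic nuclear protein Thrsp (2.29 ± 0.06) and the elongase Elovl7 (-2.14 ± 0.08).

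Compared per length of exon, as mean CPM per kilobase, Scd2 was the highest of the 36 genes in each of the 3 control groups: 125 in CD INPUT, 564 in CD IP and 107 in cEND cells with DMSO. In CD IP the next were Fads1 at 245, Scd1 at 222, Fads2 at 94.4 and Elovl5 at 69.2, all of the fatty acid arm, and Hmgcs1 was the highest sterol gene at 48.5. In cEND with DMSO the order differed, with Fasn at 77.2, Acly at 65.9, Insig1 at 61.8 and Acat2 at 36.8 after Scd2. Tm7sf2, a sterol C14-reductase gene, was the lowest in all 3 groups. The 2 experiments were counted and scaled apart, so levels are ordered within a group only.

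**Figure D2:**
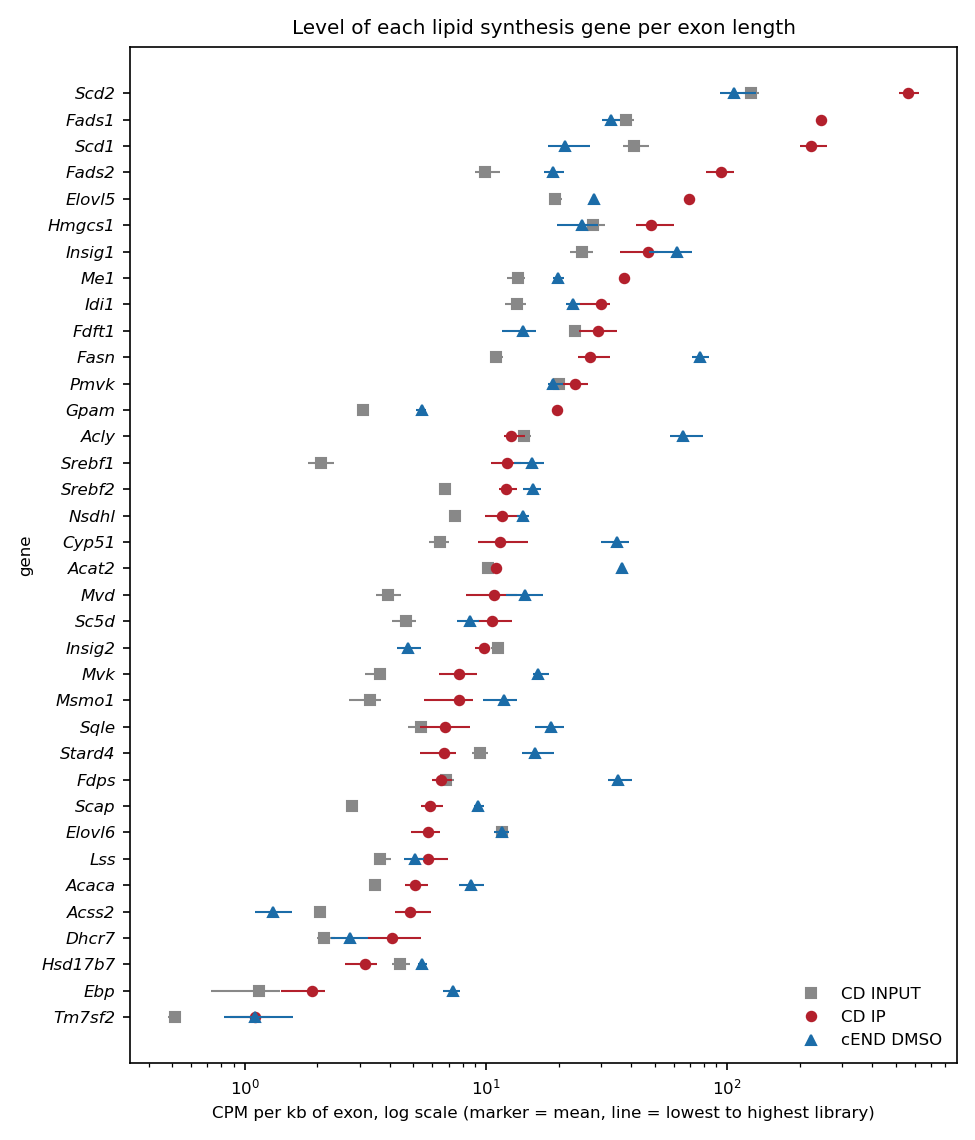
Mean CPM per kilobase of exon for each of the 36 genes on a log axis, in CD INPUT (4 libraries, squares), CD IP (4 libraries, circles) and cEND with DMSO (3 libraries, triangles); lines run from the lowest to the highest library. Scd2 is at the top in each group, at 125, 564 and 107.

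After 3 days of HFD, none of the 36 genes passed the threshold in tagged-ribosome RNA, although 33 of them had a negative sign. The comparison of HFD with CD within the IP libraries asks what the diet changed on the tagged ribosomes. In edgeR's quasi-likelihood test with Benjamini-Hochberg adjustment, 0 of 36 genes were called, against 0.0883% of all genes (14 genes). At an unadjusted p under 0.05 there were 4 of the 36 and 1832 of all 15858 genes tested, a like share. All 19 sterol genes were negative (median log2 fold change -0.13), as were 4 of 5 regulators (-0.13) and 10 of 12 fatty acid genes (-0.16), while 50.3% of all genes were positive. In Fasn and Lss the diets did not overlap, each HFD library being below each CD library, which held for 2.65% of all genes.

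Fasn was at 303, 285, 309 and 385 CPM in the CD IP pools and 253, 260, 244 and 280 CPM in the HFD IP pools. The highest HFD pool was just below the lowest CD pool, and the log2 fold change was -0.31 ± 0.08 (adjusted p = 0.158, edgeR quasi-likelihood test). Lss, the cyclase that makes lanosterol, was at 60.0, 62.5, 64.2 and 81.0 CPM on CD and 53.2, 58.0, 56.9 and 55.1 CPM on HFD. The gap between the groups was again narrow, at -0.26 ± 0.08 on the log2 scale (adjusted p = 0.226, edgeR quasi-likelihood test). Srebf1 held 64.4, 66.9, 79.9 and 84.8 CPM on CD and 56.1, 66.7, 55.3 and 66.0 CPM on HFD, which overlapped (-0.28 ± 0.09, adjusted p = 0.242 by the same edgeR test). Fads1 had the next smallest p, with 1240, 1250, 1280 and 1320 CPM on CD and 1210, 1270, 958 and 1050 CPM on HFD; HFD pools 3 and 4 were low and pool 2 was within the CD range (-0.18 ± 0.08). DESeq2 called Fasn (adjusted p = 0.0423; 1.88% of all genes called), and edgeR without the filter on low counts called Fasn, Srebf1 and Lss (adjusted p = 0.00628, 0.02 and 0.0377; 1.5% of all genes called).

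The sterol genes moved with the pool as much as with the diet. Relative to the mean of all 8 IP libraries, the sterol arm averaged 0.07, 0.09, -0.19 and 0.29 on the log2 scale in CD pools 1 to 4, and -0.02, 0.23, -0.25 and -0.22 in HFD pools 1 to 4. CD pool 4 and HFD pool 2 were high, CD pool 3 and HFD pools 3 and 4 were low, and the diets overlapped. Msmo1, the methylsterol oxidase, showed it gene by gene, with 51.8, 58.7, 36.7 and 58.1 CPM on CD and 48.1, 67.9, 33.1 and 33.1 CPM on HFD. Insig1 ran from 120 to 174 CPM on CD and from 102 to 184 CPM on HFD (-0.18 ± 0.20), and Sqle was at 51.4 CPM in both CD pool 4 and HFD pool 2 (-0.04 ± 0.17). Hmgcs1 (-0.18 ± 0.11), Srebf2 (-0.13 ± 0.08) and Scd2 (-0.17 ± 0.09) also overlapped, with adjusted p of 0.561, 0.592 and 0.505 in edgeR's quasi-likelihood test. The fatty acid arm spread less, from 0.01 to 0.20 over the CD pools and from -0.20 to 0.03 over the HFD pools.

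The summed astrocyte markers in the IP libraries were 32600 to 37300 CPM on CD and 30400 to 32600 CPM on HFD on the scale of this comparison, with 7 of 10 negative, a median of -0.10 and 0 called. The 11 endothelial markers summed to 76.4 to 118 CPM on CD and 80.5 to 101 CPM on HFD, with 8 of 11 negative (median -0.06). Of 10 oligodendrocyte markers, 7 were negative with a median of -0.26, and 5 had an unadjusted p under 0.05. The count of all genes at that p in this comparison is given above. In 4 of these markers each HFD library was below each CD library, which held for 2.65% of all genes. The 10 oligodendrocyte markers summed to 741 to 822 CPM on CD and 696 to 819 CPM on HFD. Of 8 microglial markers 6 were negative (median -0.23), as were 6 of 8 neuronal markers (median -0.09), and none of any of these lists was called. Whether these cell types had a part in the negative signs of the 36 genes was not tested. None of the 12 other sterol genes, 5 efflux genes or 15 other fatty acid genes was called, and 10, 3 and 13 of them were negative; Npc1 was at -0.23 ± 0.08, Abca1 at -0.32 ± 0.12 and Acacb at -0.46 ± 0.13.

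**Figure D3:**
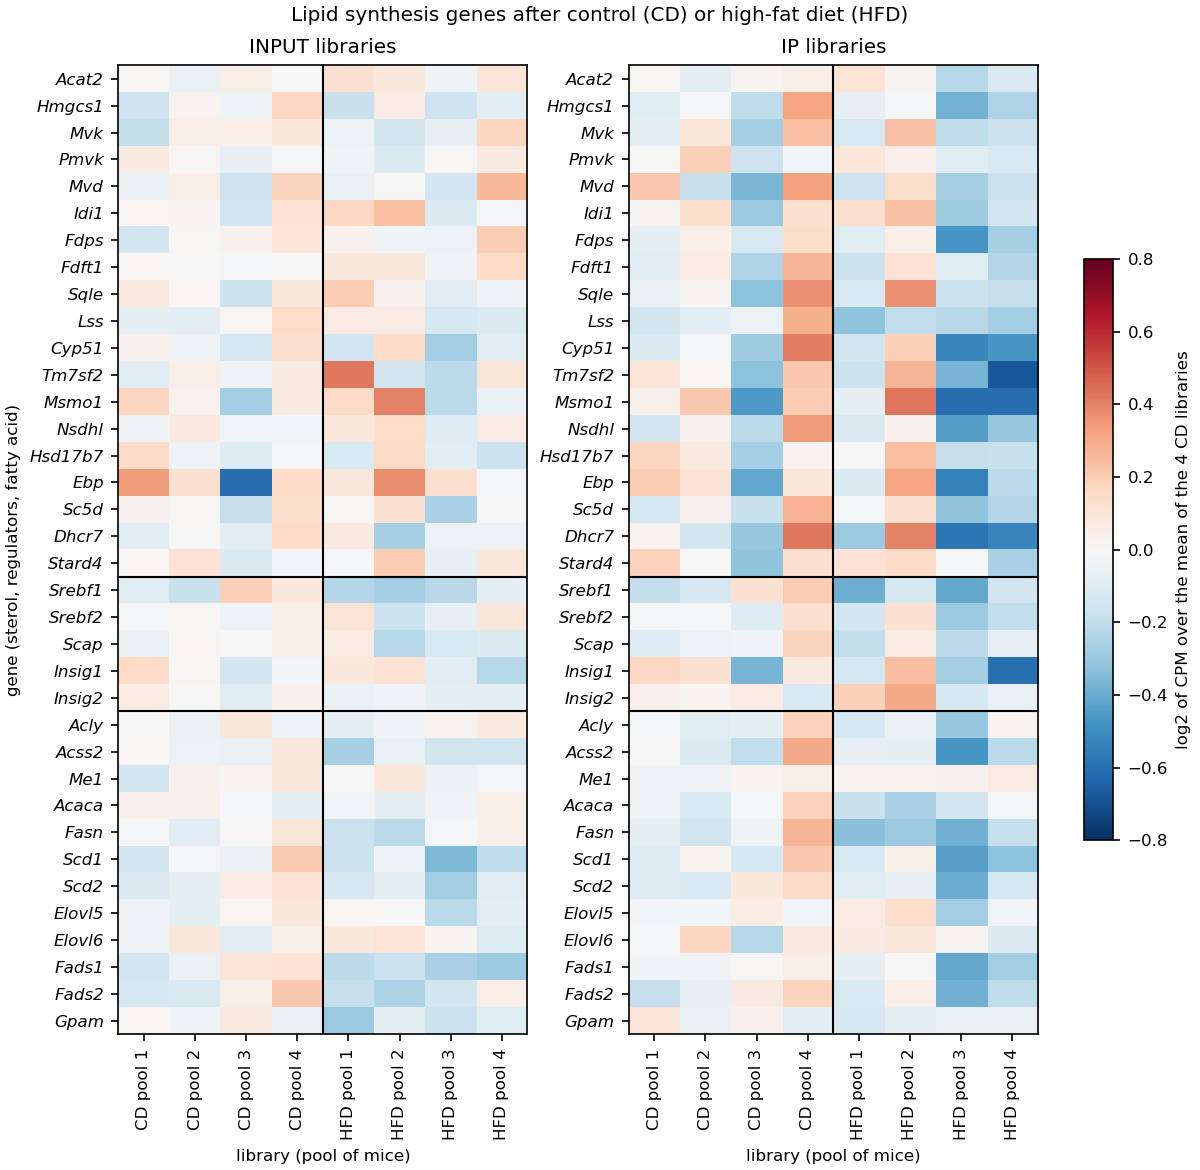
Log2 ratio of each library's CPM to the mean of the 4 CD libraries for the 36 genes (rows) in INPUT (left) and IP (right), red above and blue below the CD mean; black lines part the diets and the sterol, regulator and fatty acid groups. In IP the sterol rows are mostly red in CD pool 4 and HFD pool 2 and blue in CD pool 3 and HFD pools 3 and 4.

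In lysate RNA the diet left the sterol arm centred near 0, and again no gene passed. In INPUT, 0 of 36 were called by edgeR's quasi-likelihood test, against 0.0355% of all genes (6 genes). At an unadjusted p under 0.05 there were 6 of the 36 and 1258 of all 16879 genes tested. The sterol arm had 11 of 19 positive (median 0.03), the regulators 5 of 5 negative (-0.06) and the fatty acid arm 10 of 12 negative (-0.11). In 3 genes, Fads1, Acss2 and Gpam, each HFD library was below each CD library, which held for 2.26% of all genes. Fads1 was at 150, 161, 180 and 182 CPM on CD and 145, 149, 140 and 137 CPM on HFD, a narrow but complete separation (-0.24 ± 0.06, adjusted p = 0.29 by edgeR's test, and 0.0145 without the filter on low counts, where 0.401% of all genes were called). Acss2 was at 19.3, 18.5, 18.3 and 20.3 CPM on CD and 15.9, 18.3, 17.2 and 17.1 CPM on HFD, the closest values being all but equal (-0.16 ± 0.07). Scd1 (-0.19 ± 0.08), Scd2 (-0.15 ± 0.06) and Srebf1 (-0.21 ± 0.09) overlapped between diets. Fasn was at -0.09, Hmgcs1 at -0.08, Insig1 at -0.03, Srebf2 at -0.01 and Sqle at 0.03. The endothelial markers, 9 of 11 positive with a median of 0.22, summed to 15.5 to 18.1 CPM on CD and 17.7 to 23.1 CPM on HFD. Of the 10 astrocyte markers, 7 were negative with a median of -0.10 and 4 had an unadjusted p under 0.05; they summed to 3890 to 4760 CPM on CD and 3890 to 4270 CPM on HFD. The part of either cell type in the values of the 36 genes was not tested.

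The difference between the diet's effect in IP and in INPUT was tested directly, and 0 of 36 genes passed, as did 0 of all 17592 (background 0%). At an unadjusted p under 0.05 there were 2 of the 36, Lss (-0.25 ± 0.12) and Fasn (-0.23 ± 0.11), and 755 genes of all; DESeq2 called 4 genes, none of them among the 36. The sign was negative in 18 of 19 sterol genes (median -0.17), while 46.0% of all genes were positive (median -0.02). A difference between the fractions in their response to the diet was therefore not shown for any of the 36.

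In cEND cells, most sterol genes were higher at 10 µM WZB117 at passages 12 and 14 but not at 18, in single libraries and without a test. The comparison asks what inhibiting glucose entry changed. Without a term for passage, edgeR's quasi-likelihood test called 0 of 36 genes between 10 µM and DMSO, against 1.27% of all genes (197 genes). At an unadjusted p under 0.05 there were 6 of 36 and 1728 of all 15466 genes tested. In 5 genes, Scd2, Me1, Mvd, Insig1 and Ebp, all 3 libraries at 10 µM lay above all 3 DMSO libraries, which held for 8.41% of all genes. The smallest p belonged to Me1 (0.29 ± 0.09, adjusted p = 0.232), Insig2 (0.47 ± 0.16, 0.27), Scd2 (0.50 ± 0.18, 0.305) and Mvd (0.43 ± 0.17, 0.371). Libraries of the same passage deviated together, so passage was also fitted as a block. That fit called 7 of 36 genes, 6 up where 9.23% of all genes were up and 1 down where 9.29% were down. The total of 7 lies near the share over all genes, 18.5% (2864 genes).

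With passage as a block, Scd2 had the smallest p: it was at 511, 527 and 721 CPM with DMSO at passages 12, 14 and 18, and at 831, 753 and 896 CPM with 10 µM. All 3 treated libraries were above all 3 controls, and the blocked log2 fold change was 0.51 ± 0.07 (adjusted p = 1.01e-05, edgeR quasi-likelihood test). Mvd went from 26.3, 22.5 and 32.2 CPM to 38.4, 35.9 and 35.2 CPM, with the smallest gap at passage 18 (0.45 ± 0.10, adjusted p = 0.0054 in the blocked edgeR test). Insig2 went from 18.7, 14.9 and 16.1 CPM to 28.0, 18.7 and 21.8 CPM (0.46 ± 0.10), and Me1 from 76.2, 72.8 and 81.0 CPM to 96.5, 94.2 and 91.5 CPM (0.30 ± 0.07). Me1 did not overlap, while in Insig2 the lowest treated library matched the highest control. Insig1, itself an SREBP target that restrains SREBP cleavage, went from 205, 146 and 222 CPM to 246, 223 and 237 CPM (0.33 ± 0.09, adjusted p = 0.0154 in the blocked edgeR test). Hsd17b7 rose by 0.28 ± 0.09 (26.7, 27.3 and 29.1 CPM to 34.6, 38.1 and 28.5 CPM). Elovl6 was the gene that fell, from 76.6, 69.2 and 79.6 CPM to 64.5, 69.3 and 57.1 CPM (-0.24 ± 0.07), and at passage 14 its libraries were nearly equal.

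The other regulators and enzymes did not pass with the block. Srebf2 was at 102, 114 and 122 CPM with DMSO and 138, 125 and 118 CPM at 10 µM (0.17, adjusted p = 0.109 in the blocked edgeR test), and Srebf1 at 73.8, 89.3 and 98.1 CPM and 95.5, 95.2 and 96.1 CPM (0.14). Hmgcs1 was at 119, 90.3 and 134 CPM and 136, 133 and 127 CPM (0.23 ± 0.14), and Sqle at 105, 88.0 and 117 CPM and 118, 119 and 111 CPM (0.18). In Srebf2, Hmgcs1 and Sqle the treated library was above its control at passages 12 and 14 and below it at passage 18. Fasn went from 781, 922 and 833 CPM to 844, 880 and 707 CPM, higher at passage 12 and lower at both others (-0.06).

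Taken passage by passage, 33 of 36 genes were higher at 10 µM than in the DMSO library at passage 12, 30 at passage 14 and 9 at passage 18, where 50.0, 49.2 and 46.4% of all genes were higher. Of the 18 sterol enzymes, 18, 17 and 5 were higher, with medians of 0.20, 0.38 and -0.07 on the log2 scale. The regulators had 5, 5 and 2 of 5 higher, and the fatty acid arm 9, 8 and 2 of 12. Each value compares 1 library with 1 other, so these counts carry no test. A separate response for each treatment and passage leaves no residual degrees of freedom, and no smaller model of the difference between passages was fitted, so that difference was not tested.

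**Figure D4:**
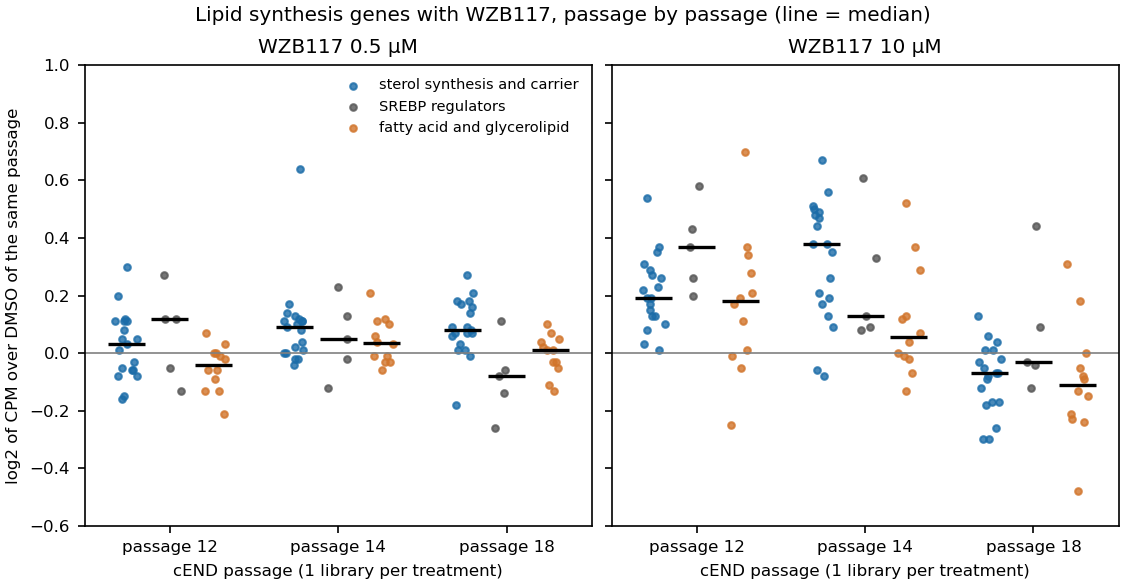
Log2 ratio of CPM over the DMSO library of the same passage for the 36 genes at 0.5 µM (left) and 10 µM (right) WZB117, each point a gene, with lines at the median; blue is the sterol arm with Stard4, grey the regulators, orange the fatty acid arm. At 10 µM the blue points are above 0 at passage 12, nearly all above at passage 14 and mostly below at passage 18.

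The passage 18 pattern came from both sides of the ratio. With DMSO, 16 of 18 sterol enzymes were higher at passage 18 than at passage 14 (median 0.27), and at 0.5 µM 16 of 18 were (median 0.25), whereas at 10 µM 1 of 18 was (median -0.17). Over all genes the shares were 48.2, 50.0 and 48.1%. Cyp51, the lanosterol demethylase, is an example: it went from 132 to 157 CPM with DMSO and from 188 to 161 CPM at 10 µM between passages 14 and 18. Passage 14 with DMSO was itself low, with 5 of 18 sterol enzymes higher than at passage 12 (median -0.15). Relative to passage 12, Cyp51 at passage 18 was lower with DMSO (-0.15 on the log2 scale) and at 10 µM (-0.46), and higher at 0.5 µM (0.09). Against passage 12, the sterol enzymes higher at passage 18 were 14 of 18 with DMSO, 15 at 0.5 µM and 3 at 10 µM. These are again single libraries.

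Leaving out the 3 libraries of passage 18 was tried after that pattern had been seen, and passages 12 and 14 were then left out in the same way. With the block and without passage 18, 14 of 36 genes were called, all up, against 7.3% of all genes up. These were Hmgcs1 (0.37 ± 0.08), Mvd (0.61 ± 0.09), Fdps, Fdft1, Sqle (0.30 ± 0.08), Cyp51 (0.43 ± 0.07), Msmo1, Hsd17b7 and Sc5d of the sterol arm, Srebf2 (0.28 ± 0.08), Insig1 and Insig2 of the regulators, and Me1 and Scd2 (0.61 ± 0.07) of the fatty acid arm. Elovl6 was not among them. Without passage 12 there were 3, Scd2, Me1 and Insig2, against 5.45% of all genes up. Without passage 14 there were 5, namely Scd2, Mvd, Insig2 and Me1 up and Elovl6 down (8.4% and 6.95% of all genes). Scd2, Me1 and Insig2 were called in each of these 3 fits, and the other calls at 10 µM rested on which passages entered. The 14 were chosen with the outcome in view and are a description.

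At 0.5 µM no response was detected. In edgeR's quasi-likelihood test 0 of 36 genes and 0 of all genes (0%) differed from DMSO, with or without the passage block, and in DESeq2 as well. At an unadjusted p under 0.05 there were 0 of the 36 and 55 of all 15466 genes tested. The smallest p belonged to Gpam (-0.08), Ebp (0.09), Hsd17b7 (0.10) and Fdft1 (0.13), each with an adjusted p of 1 in edgeR's test. Scd2 was at 510, 549 and 746 CPM, and Mvd at 25.4, 22.2 and 33.7 CPM, each library close to the DMSO library of its passage. Sign alone was lopsided, with 18 of 19 sterol genes positive at a median of 0.06. It was not alike by passage: 11, 15 and 17 of the 19 were above DMSO at passages 12, 14 and 18. Over all genes 48.4, 49.9 and 49.5% were higher, and each passage compares single libraries. Comparing 10 µM with 0.5 µM directly gave 0 of 36 genes without the block (1.27% of all genes) and 6 with it: Scd2 (0.48), Mvd (0.45), Insig2 (0.43), Insig1 (0.26) and Me1 (0.25) up, against 9.28% of all genes, and Elovl6 (-0.24) down, against 8.55%. These calls too rested on which passages entered. Without passage 12 there were 2, Scd2 up and Stard4 down (-0.27, adjusted p = 0.0202 in the blocked edgeR test), against 4.59% and 5% of all genes. Without passage 14 there were 5, Scd2, Mvd, Insig2 and Me1 up and Elovl6 down (7.91% and 6.62% of all genes), and without passage 18 there were 11, all up (7.17%). Scd2 was the 1 gene called in each of these 3 fits. The comparisons with DMSO share its 3 libraries, and both that involve 10 µM share those, so their likeness is not independent.

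**Figure D5:**
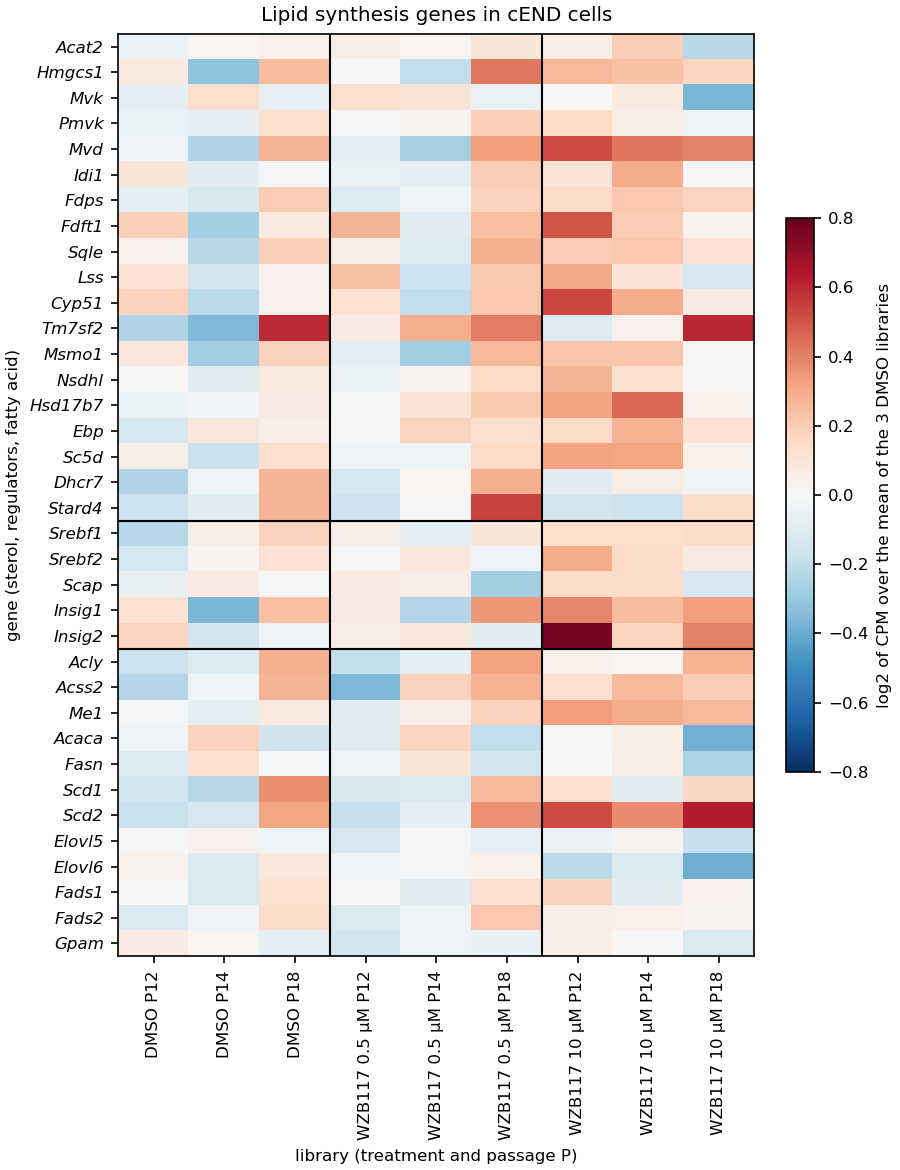
Log2 ratio of each cEND library's CPM to the mean of the 3 DMSO libraries for the 36 genes (rows), red above and blue below; vertical lines part DMSO, 0.5 µM and 10 µM, each at passages (P) 12, 14 and 18. Scd2, Mvd and Me1 are red in all 3 libraries at 10 µM, and passage 18 with DMSO or 0.5 µM is redder than passage 14.

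Around the pathways at 10 µM, 2 of 12 other sterol genes rose with the block, including Soat1 (0.32). Of the 5 efflux genes the receptor Nr1h2 rose (0.41) and Abcg1 fell (-0.48). Of 12 other fatty acid genes tested, 1 rose, the phosphatidate phosphatase Lpin1 (0.90, adjusted p = 1.07e-08 in the blocked edgeR test). Of 10 endothelial markers, 3 rose and 1 fell.

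Passage itself went with changes in part of the list, as it did in much of the transcriptome. In total the 36 genes were called less often than all genes between passages 14 and 12, and about as often in both comparisons with passage 18. The passage fits carry a treatment term, and each passage is 3 libraries that differ in treatment. Those libraries are no replicate cultures, so p-values here do not measure the spread between cultures of a passage. Between passages 14 and 12, 5 of 36 genes were called by edgeR's quasi-likelihood test, 1 up where 10.1% of all genes were up and 4 down where 11.5% were down: Acaca, the acetyl-CoA carboxylase, was up (0.18 ± 0.06), and Fdft1 (-0.38 ± 0.09), Insig1 (-0.31 ± 0.09), Insig2 (-0.30 ± 0.10) and Lss (-0.29 ± 0.09) were down. The count fell to 1 without DMSO passage 12 or DMSO passage 14, 2 without 0.5 µM passage 14, and 3 without DMSO passage 18 or 10 µM passage 12, and rose to 8 without 10 µM passage 14 and 10 without 10 µM passage 18. How many of all genes were called in each of those fits is not given here. The changes in count are therefore not read as particular to the 36 genes. Each of the 5 calls was lost without at least 1 library; for Fdft1 it was 10 µM passage 12. Srebf1, Srebf2, Hmgcs1, Sqle, Fasn and Scd2 were not called, at 0.05, 0.03, -0.20, -0.13, 0.14 and 0.00.

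Between passages 18 and 12, 12 of 36 were called, 9 up and 3 down, against 15.9% and 19.2% of all genes. The largest rises were Tm7sf2 (0.64 ± 0.16), which shares 12.1% of its exon bases with Vps51 on the same strand, and Stard4 (0.48 ± 0.07) in the sterol arm, followed by Acly (0.40 ± 0.06) and Acss2 (0.40 ± 0.11) in the fatty acid arm. Stard4 was at 78.8, 79.2 and 80.2 CPM at passage 12 and at 107, 129 and 98.4 CPM at passage 18, for DMSO, 0.5 and 10 µM, with no overlap (adjusted p = 2.89e-06, edgeR quasi-likelihood test). The remaining rises were Dhcr7 (0.33), Fdps (0.20), Scd2 (0.38 ± 0.07), Scd1 (0.32) and Fads2 (0.19), and the falls Insig2 (-0.25), Acaca (-0.20) and Scap (-0.19). Hmgcs1 (0.17), Sqle (0.11), Srebf1 (0.15), Srebf2 (0.00), Insig1 (0.12) and Fasn (-0.09) did not pass. Without DMSO passage 18 the count was 7, and Stard4, Acly, Scd1 and Scd2 stayed called whichever library was left out. For that fit too the share of all genes called is not given here. Without the treatment term Scd2 lost its call (adjusted p = 0.341, edgeR quasi-likelihood test). Of 10 endothelial markers 9 rose and 1 fell between these passages (median 0.39), and 4 of 5 efflux genes rose, among them Abcg1 (0.81 ± 0.06). The summed fibroblast markers were at 77.7 to 101 CPM at passage 12 and 31.9 to 35.6 CPM at passages 14 and 18, and the summed neuronal markers at 239 to 369 CPM at passages 12 and 14 and 486 to 597 CPM at passage 18. The part of these lists in the changes of the 36 genes was not tested.

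Between passages 18 and 14, 13 were called, 9 up and 4 down, against 15.8% and 17.3% of all genes. In the sterol arm these were Tm7sf2 (0.54), Stard4 (0.41), Mvd (0.36), Sqle (0.23) and Mvk (-0.26), and among the regulators Insig1 (0.42 ± 0.09) and Scap (-0.23). In the fatty acid arm Scd1 (0.41 ± 0.08), Scd2 (0.39 ± 0.07), Acly (0.35 ± 0.06) and Fads1 (0.20) rose, and Acaca (-0.38 ± 0.06) and Fasn (-0.23 ± 0.06) fell. Acaca was at 168, 166 and 154 CPM at passage 14 and at 132, 129 and 113 CPM at passage 18, a fall with no overlap, opposite in sign to Scd1, Scd2 and Fads1. Hmgcs1 (0.37 ± 0.14), Srebf1 (0.11) and Srebf2 (-0.03) did not pass. Without 10 µM passage 18 the count rose to 20, and without 0.5 µM passage 14 or 0.5 µM passage 18 it was 8. The share of all genes called in those fits is not given here, so these counts are not read as particular to the listed genes. Stard4, Acly, Acaca, Scd1, Scd2 and Insig1 stayed called whichever library was left out. Without the treatment term Scd2 and Insig1 lost their call (adjusted p = 0.329 and 0.0975, edgeR quasi-likelihood test). Treatments were not alike for Insig1, at 0.6 with DMSO, 0.59 at 0.5 µM and 0.09 at 10 µM. Mvd (0.51, 0.6 and -0.03) and Sqle (0.41, 0.39 and -0.1) changed sign at 10 µM, while the other called genes kept 1 sign in every treatment.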

How the data were processed

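RNA was sequenced from 16 hypothalamic and 9 cEND libraries. The authors deposited 1 table of estimated counts per gene for each experiment; 17.3% and 19.8% of values were not whole and were rounded here. Reads were placed on GRCm38, per the submitters' processing notes; aligner, counting tool, annotation release and strand setting are not given in the sources used here. Of the 36 genes, 13 share exon bases with another gene in GENCODE M21, 10 with one on the opposite strand, among them Fdft1 (18.3% of exon bases), Scap (13.2%) and Hmgcs1 (12.1%), so reads of such pairs cannot be told apart with certainty.

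The 36 genes, the marker lists and the neighbouring lists were chosen with earlier results of these data known, and so was the rule for naming genes: the changed genes of each comparison, at most 4 per arm and direction where more than 6 changed, the 4 of smallest p where none changed, and Srebf1, Srebf2, Insig1, Hmgcs1, Sqle, Fasn and Scd2 throughout. Other members named were chosen after their values were seen. The INPUT and IP libraries of a number were taken to come from 1 pool. The fits used edgeR 4.0.16 (R 4.3.3; filterByExpr, TMM, robust quasi-likelihood F-test); p-values were adjusted by the Benjamini-Hochberg method over all genes with a threshold of 0.05, and the procedure was tested on simulated counts. The groups of each comparison entered its fit: all 16 libraries for IP against INPUT and the interaction, the 8 of a fraction for diet, and all 9 cEND libraries for dose and passage. Alternatives were DESeq2 1.42.0, RLE size factors, no filter, structural RNA left out, replicate blocks and leaving out each library. Libraries of the same cEND passage were paired: their deviations from group means correlated at 0.38 to 0.58, and those of different passages at -0.41 to -0.083. The negative values follow in part from centring on group means, so they are no further evidence of pairing. No pair of libraries of a group agreed within sampling noise (lowest chi-square per degree of freedom 9.08 in the hypothalamus and 46 in cEND).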

Additional observations from a re-analysis of the deposited data

Results flagged for a closer look

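In 144 groups of 4 pools (36 genes in each diet and fraction), 5 held a library whose gap to the nearest other exceeded Dixon's 95% critical value; chance flags about 1 group in 20. Sqle in the IP of HFD pool 2 was at 51.4 CPM with the others at 35.2 to 36.5 CPM, and Mvk there was at 26.2 CPM with the others at 19.3 to 20.4 CPM. Elovl5 in the IP of CD pool 3 was at 274 CPM with the others at 260 CPM. In CD INPUT, Mvk in pool 1 was at 7.77 CPM with the others at 9.19 to 9.41 CPM, and Nsdhl in pool 2 at 20.6 CPM with the others at 19.1 to 19.2 CPM.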

How the results depend on the processing

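The number of the 36 genes that passed in IP against INPUT was 34 to 35 under every alternative and when each library was left out. For diet in IP it moved from 0 to 1 with DESeq2 and 3 without the filter, and in INPUT from 0 to 1 without the filter; it was 0 whichever library was left out, and for the interaction under every alternative. Over all genes, diet calls in IP were 14, but 200 with DESeq2, 398 without the filter, 52 with the replicate number as a block and 121 with all 16 libraries in 1 fit; in INPUT they were 6, but 52, 116, 43 and 2. Hypothalamic libraries of the same number hardly deviated together (correlations of 0.052 to 0.11 between the INPUT and IP of CD pools, -0.0063 to 0.14 for HFD, -0.0099 to 0.033 between diets in IP and 0.04 to 0.1 in INPUT), and with the replicate or pool block the counts of the 36 stayed at 35 for IP against INPUT and 0 for diet and interaction. For 10 µM against DMSO the passage block moved the count from 0 to 7, or to 3, 5 and 14 without passages 12, 14 and 18, and for 10 against 0.5 µM from 0 to 6, or to 2, 5 and 11; leaving out single libraries without the block gave 0. Over all genes, 10 µM calls rose from 197 to 534 with DESeq2 and 2864 with the block, and calls against 0.5 µM from 197 to 524 and 2759. Passage counts of 5 (14 against 12), 12 (18 against 12) and 13 (18 against 14) became 0, 5 and 5 without a treatment term, when 1623, 3269 and 2924 genes of all passed in place of 3336, 5422 and 5121, and the first was 3 with DESeq2; they ranged from 1 to 10, 7 to 14 and 8 to 20 when each library was left out. The causes were not tested. Shares of all genes called when single libraries were left out of the passage fits are not given here. No called gene reversed its sign. With 1 library per treatment and passage, a passage-dependent response has no replicate.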
